A study of Caenorhabditis elegans with 12 samples.

Results

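The insulin/IGF-1 signalling pathway of *C. elegans* was followed at the mRNA level through 10 genes, chosen by name from the 46778 genes of the deposited tables. Values are given for 9 of the 10, which comprise the insulin receptor gene *daf-2*, the phosphoinositide 3-kinase gene *age-1*, the protein kinase genes *pdk-1*, *akt-1*, *akt-2* and *sgk-1*, and the transcription factor genes *daf-16*, *skn-1* and *hsf-1*. RNA of whole adult worms of the N2 strain was sequenced in 12 libraries, 3 for each combination of control or *lpin-1* RNAi and of control or glucose-rich diets. All worms fed from the egg on bacteria making double-stranded RNA, induced with 10 mM IPTG at 20°C, and were moved as day 1 adults to plates that all carried 10 μM FUdR, a drug that blocks progeny, with 2% added glucose for the glucose-rich diets. Below, WT denotes control RNAi worms, *lpin-1(RNAi)* the knockdown worms, and the labels do not say whether the 3 libraries of a group came from separate cultures, so p-values measure only the spread between these libraries. *lpin-1* RNAi by feeding lowers the mRNA without removing it and is given to the whole animal, and its product LPIN-1 turns phosphatidic acid into diacylglycerol.

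In worms, insulin-like peptides bind the receptor DAF-2, which acts through AGE-1 to make the membrane lipid PIP3. PIP3 recruits PDK-1, which activates AKT-1, AKT-2 and SGK-1, and these kinases phosphorylate DAF-16/FOXO and SKN-1/NRF and keep them out of the nucleus. The pathway is best known for setting lifespan, stress resistance, fat storage and dauer formation, mostly through phosphorylation, which mRNA levels do not show.

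Library totals were 16546025 to 31534259 counts. The targeted gene *lpin-1* was lower in the knockdown groups on both diets, at 89.3 ± 5.01 against 158 ± 12.28 CPM (read counts relative to the library total, scaled by the TMM method, mean ± SD, n = 3) on control diets and 112 ± 9.30 against 165 ± 15.8 on glucose-rich diets. Of all genes, 14696 had enough counts to be tested, and all 10 pathway genes were among them. In these whole-body libraries, fewer cells of a type and less RNA per cell cannot be told apart. Some markers of several tissues passed (adjusted p under 0.05, edgeR quasi-likelihood test) with *lpin-1* RNAi on both diets, and some with glucose. Of all tested genes, *lpin-1* RNAi changed 39.3% in either direction and 19.5% upwards on control diets, and 31.8% and 16% on glucose-rich diets. Whether the counts of markers below differ from these shares was not tested. The 7 neuron markers summed to 213 to 256 CPM in WT and 391.7 to 424 in *lpin-1(RNAi)* on control diets, with 3 of 7 passing upwards. Most of that rise was *snb-1*, at means of 114.9 and 259.9 CPM. *egl-3* and *egl-21* passed too (log2 fold change 0.60 and 0.35), while the others lay between -0.01 and 0.14. On the same diets the 6 intestine markers summed to 1133 to 1220 and 620 to 716 CPM, with 4 lower and 1 higher. The 6 hypodermis markers summed to 2183 to 2667 and 356 to 469 CPM with 1, the collagen gene *col-19*, passing. *col-19* made up most of both sums, at means of 2401 and 371 CPM. The 8 germline markers summed to 2392 to 3135 and 1649 to 2320 CPM with 5 lower (1 when libraries were scaled by totals alone). On glucose-rich diets 4 of 7 neuron markers passed upwards, 5 of 6 intestine markers passed downwards and the other, *elt-2*, upwards, and 1 of 6 hypodermis and 3 of 8 germline markers passed downwards (1 of 8 germline markers with totals alone). Of 8 oocyte and eggshell markers 3 were lower on control diets (0 with totals alone, 5 with the replicate block, a fit with the replicate number of the labels as a term) and 0 with glucose added. Of 7 sperm markers 1 passed upwards on each diet (4 with the block and glucose added), and of 6 body wall muscle markers 1 was lower on control diets and 1 higher with glucose added (4 higher with the block). The block also gave 6 germline markers lower on control diets and, with glucose added, 5 neuron markers higher, 2 hypodermis markers lower and 1 oocyte and eggshell marker lower. The shares above belong to the main fit (TMM scaling, no block), and none is given for totals alone or the block. No marker was at 0 in all libraries, and the part of tissue content in the results below was not tested.

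Of the 9 genes described, *akt-1* had the highest mean level per kb of exons over the 12 libraries, at 93.2 ± 7.53 CPM per kb (SD), followed by *skn-1* at 65.4 ± 9.17. These 2 genes kept their order in every library, and their ranges did not overlap. Next came *hsf-1* at 40.7 ± 3.80 CPM per kb and *daf-16* at 34.1 ± 5.98, whose ranges overlapped although *hsf-1* was above *daf-16* in 10 of 12 libraries. *sgk-1* and *age-1*, at 19.9 ± 6.52 and 17.6 ± 2.99 CPM per kb, had no fixed order over the groups, as *sgk-1* was above *age-1* in 6 of 12 libraries. *sgk-1* was the higher in 3 of 3 *lpin-1(RNAi)* libraries on control diets (28.004 to 31.4 against 12.8 to 20.04 CPM per kb) and in 0 of 3 WT libraries on glucose-rich diets. The receptor gene *daf-2* followed at 12.57 ± 3.80 CPM per kb, then *akt-2* at 9.47 ± 3.75, with *daf-2* the higher in 11 of 12 libraries. *pdk-1*, the kinase that activates AKT and SGK, was the lowest at 5.45 ± 0.829 CPM per kb.

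**Figure D1:**
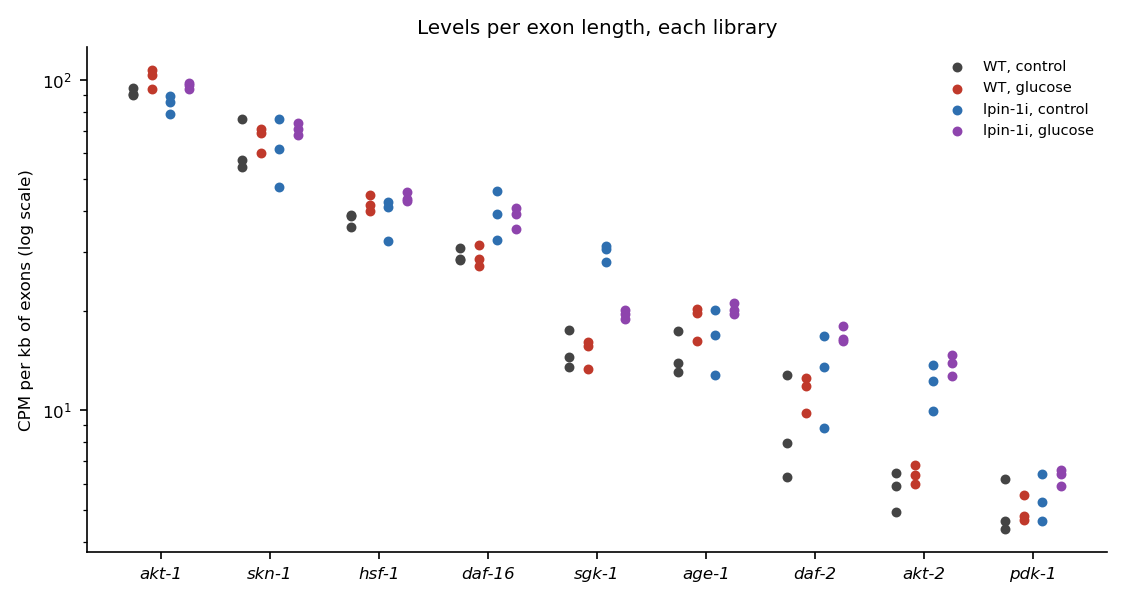
Level of 9 genes in CPM per kb of exons on a log axis, 1 point per library, coloured by group (lpin-1i, *lpin-1* RNAi), with genes ordered by their mean over the 12 libraries. The points of *akt-1* and *skn-1* form separate bands, while the lower genes overlap with their neighbours.

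*lpin-1* RNAi raised mRNA of the kinases *akt-2* and *sgk-1* and of the transcription factor *daf-16* on control diets, and the remaining 7 genes did not pass the test. The edgeR quasi-likelihood test with Benjamini-Hochberg adjustment over all tested genes called 3 of 10 higher and none lower at an adjusted p under 0.05. *lpin-1* RNAi changed many genes, since 39.3% of all tested genes passed in this comparison in either direction and 19.5% passed upwards. The 3 of 10 is below the share in either direction and above the upward share, and with 10 genes nothing particular to the pathway is read from it. On glucose-rich diets the same 3 genes passed upwards, against a background of 31.8% in either direction and 16% upwards. Over the 10 genes the log2 fold changes had medians of 0.13 (control) and 0.22 (glucose-rich), beside 0.00 and 0.03 over all tested genes. Requiring a 2-fold change besides left *akt-2* on each diet, 1 of 10, beside 15.6% and 12.2% of all tested genes. Without overlap between WT and *lpin-1(RNAi)* libraries were 44.5% of tested genes on control diets and, with glucose added, 52%, and of the 10 genes 4 and 5.

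The receptor gene *daf-2* (chromosome III, 2994514 to 3040846, minus strand, WBcel235) measured 52.1, 106 and 66.0 CPM in the 3 WT libraries on control diets and 73.1, 139 and 112 in *lpin-1(RNAi)*. On glucose-rich diets *daf-2* measured 97.9, 104 and 81.1 CPM in WT and 149, 137 and 134 in *lpin-1(RNAi)*. The groups overlapped on control diets, where replicate 2 was the highest library of both groups, and separated on glucose-rich diets, and *lpin-1(RNAi)* was above WT at 3 of 3 replicate numbers on each diet. The log2 fold change of *daf-2* was 0.53 (SE 0.25, adjusted p = 0.107, edgeR) without and 0.57 (SE 0.25, adjusted p = 0.098) with added glucose, neither of which passed. Same-numbered WT and *lpin-1(RNAi)* libraries deviated together on both diets, and a fit blocked on that number gave 0.54 (adjusted p = 0.032, edgeR) and 0.58 (adjusted p = 0.026), both of which passed. Leaving out 1 library at a time moved the unblocked control-diet value from 0.31, without replicate 2 of *lpin-1(RNAi)*, to 0.87, without replicate 2 of WT.

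*age-1*, whose kinase makes PIP3, averaged 58.1 ± 9.01 CPM in WT and 65.2 ± 14.2 in *lpin-1(RNAi)* on control diets, and 73.5 ± 8.49 and 79.4 ± 3.16 on glucose-rich diets (SD, n = 3). The WT and *lpin-1(RNAi)* groups overlapped on each diet. The 95% confidence interval of the log2 fold change by *lpin-1* RNAi ran from -0.16 to 0.49 on control diets and from -0.22 to 0.44 on glucose-rich diets.

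*pdk-1* measured 10.6, 15.01 and 11.2 CPM in WT and 11.2, 15.6 and 12.8 in *lpin-1(RNAi)* on control diets. On glucose-rich diets *pdk-1* measured 11.6, 13.4 and 11.3 CPM in WT and 15.95, 15.5 and 14.3 in *lpin-1(RNAi)*, where the groups did not overlap. The log2 fold change was 0.10 (SE 0.16, adjusted p = 0.652, edgeR) and 0.33 (SE 0.16, adjusted p = 0.136). With the replicate block the glucose-rich value was 0.34 (adjusted p = 0.039, edgeR), so the block raised the number of pathway genes called from 3 to 4 without added glucose and from 3 to 5 with it. The share of all tested genes called with the block is not given here, so nothing particular to the pathway is read from this rise.

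Of the paralogous kinases *akt-1* and *akt-2*, both homologues of mammalian AKT, *akt-2* rose with *lpin-1* RNAi and *akt-1* did not pass. *akt-2* (chromosome X, 14147700 to 14152070, plus strand) measured 11.7, 15.3 and 14.02 CPM in WT and 23.7, 32.7 and 29.3 in *lpin-1(RNAi)* on control diets. On glucose-rich diets *akt-2* measured 14.2, 16.21 and 15.2 CPM in WT and 30.3, 34.9 and 33.1 in *lpin-1(RNAi)*. Every *lpin-1(RNAi)* library lay above every WT library on both diets. *akt-2* rose 2.08-fold on control diets (log2 fold change 1.06, SE 0.13, adjusted p = 3.0e-05, edgeR) and 2.15-fold on glucose-rich diets (log2 fold change 1.10, SE 0.13, adjusted p = 3.0e-05), and both changes passed in all 19 alternative settings.

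*akt-1* (chromosome V, 10248905 to 10252845, plus strand) measured 215, 206 and 204 CPM in WT and 179, 195 and 203 in *lpin-1(RNAi)* on control diets. On glucose-rich diets *akt-1* measured 243, 234 and 214 CPM in WT and 222, 219 and 213 in *lpin-1(RNAi)*. The *lpin-1(RNAi)* libraries were all below WT on control diets and overlapped with WT on glucose-rich diets. Its log2 fold changes of -0.12 (95% confidence interval -0.29 to 0.05) and -0.08 (-0.25 to 0.09) did not pass (adjusted p = 0.269 and 0.477, edgeR) and became 0.13 and 0.12 when libraries were scaled by their totals alone. The 3' end of *akt-1* shares 8 bases of exon with *rop-1* on the other strand.

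A ratio of both kinases within a library does not depend on the scaling. Per kb, *akt-2* stood at 5.22%, 7.13% and 6.57% of *akt-1* in the WT libraries on control diets and at 12.7%, 16.06% and 13.8% in *lpin-1(RNAi)*. On glucose-rich diets *akt-2* stood at 5.60%, 6.61% and 6.79% of *akt-1* in WT and 13.03%, 15.2% and 14.9% in *lpin-1(RNAi)*. The ratio was higher in every *lpin-1(RNAi)* library and nearly the same on both diets within each RNAi group, while *akt-1* remained the more abundant mRNA in every library.

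**Figure D2:**
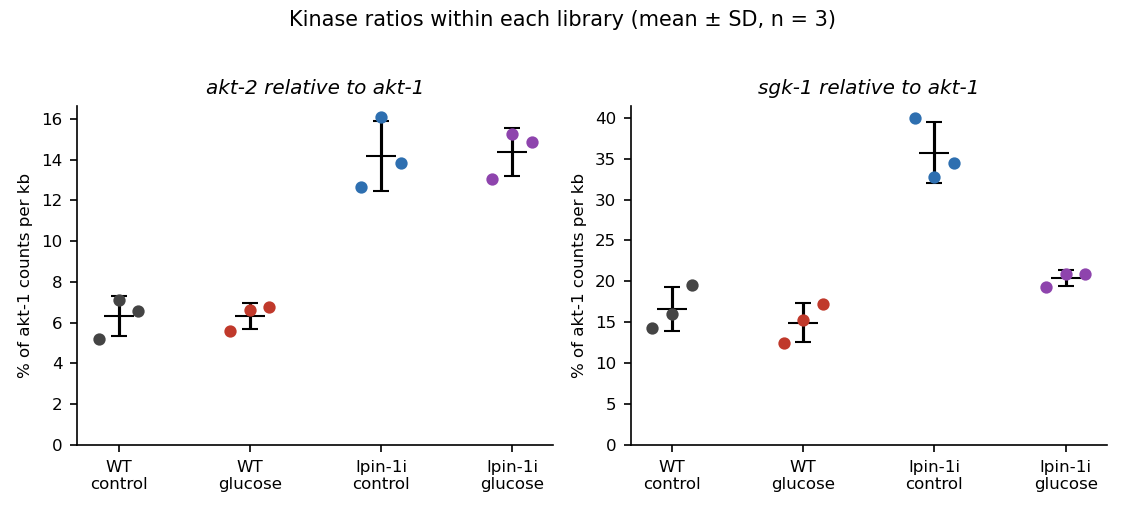
Levels of *akt-2* and *sgk-1* as a percentage of *akt-1*, each in counts per kb of exons, in each library (points) with mean ± SD (n = 3), by RNAi and diet. For *akt-2* the *lpin-1* RNAi groups (lpin-1i) average 14.2% and 14.4%, without and with glucose, against 6.31% and 6.33% in WT, and for *sgk-1* they average 35.8% and 20.4%, against 16.6% and 14.97%.

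*sgk-1* was the pathway gene that passed for both interventions, rising with *lpin-1* RNAi and falling with glucose in *lpin-1(RNAi)*. It encodes a serum- and glucocorticoid-inducible kinase homologue that acts with the AKT kinases and also in the TORC2 pathway of fat and growth control. *sgk-1* (chromosome X, 16254842 to 16262122, minus strand) measured 22.04, 23.6 and 28.7 CPM in WT and 51.5, 45.8 and 50.2 in *lpin-1(RNAi)* on control diets. On glucose-rich diets *sgk-1* measured 21.8, 25.7 and 26.4 CPM in WT and 30.8, 32.9 and 32.0 in *lpin-1(RNAi)*. The *lpin-1(RNAi)* libraries lay above WT on each diet, and those on control diets lay above all other libraries.

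*sgk-1* rose 1.98-fold by *lpin-1* RNAi on control diets (log2 fold change 0.99, SE 0.11, adjusted p = 8.7e-06, edgeR) and 1.29-fold on glucose-rich diets (log2 fold change 0.37, SE 0.11, adjusted p = 0.020). The first passed in all 19 alternative settings, which do not include the 2-fold threshold that it missed. The second passed in 13 of 19 and in 7 of the 12 fits that left out 1 library, with adjusted p up to 0.127 (edgeR, without replicate 2 of the *lpin-1(RNAi)* libraries with glucose). Calls were also lost without replicates 1 or 3 of that group, without replicate 1 of WT on glucose-rich diets (log2 fold change 0.29), without replicate 3 of *lpin-1(RNAi)* on control diets, or with no filter on low counts.

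*daf-16* encodes the FOXO factor that the insulin pathway holds in the cytoplasm. *daf-16* (chromosome I, 10750498 to 10776703, plus strand) measured 106, 114 and 105 CPM in WT and 121, 169 and 144 in *lpin-1(RNAi)* on control diets. On glucose-rich diets *daf-16* measured 116, 101 and 106 CPM in WT and 144, 130 and 151 in *lpin-1(RNAi)*. The groups did not overlap on either diet. *daf-16* rose 1.34-fold on control diets (log2 fold change 0.42, SE 0.11, adjusted p = 0.011, edgeR) and 1.32-fold on glucose-rich diets (log2 fold change 0.40, SE 0.11, adjusted p = 0.018). Neither rise reached the 2-fold threshold, which is counted apart from the 19 alternative settings. The control-diet call held in all 19 alternative settings, while the glucose-rich call held in 15 and was lost without replicates 1 or 3 of *lpin-1(RNAi)* (log2 fold change 0.31 and 0.29) or without replicates 2 or 3 of WT (0.35 and 0.38) on glucose-rich diets. The gene has 11 annotated transcripts, and the counts, made per gene, do not separate the isoforms.

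*skn-1* and *hsf-1* did not pass. *skn-1*, the NRF-type factor of detoxification, averaged 185 ± 34.5 CPM in WT and 183 ± 42.4 in *lpin-1(RNAi)* on control diets, and 197 ± 17.02 and 209 ± 8.26 on glucose-rich diets. *hsf-1*, the heat shock factor needed for the long life of insulin pathway mutants, averaged 93.9 ± 4.30 and 96.1 ± 13.7 CPM on control diets, and 104 ± 6.22 and 109 ± 3.80 on glucose-rich diets. The WT and *lpin-1(RNAi)* groups of both overlapped on each diet, and on control diets the interval of the log2 fold change was -0.36 to 0.33 for *skn-1* and -0.18 to 0.25 for *hsf-1*. *skn-1* shares 41 bases of exon with *csn-5* on the other strand.

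**Figure D3:**
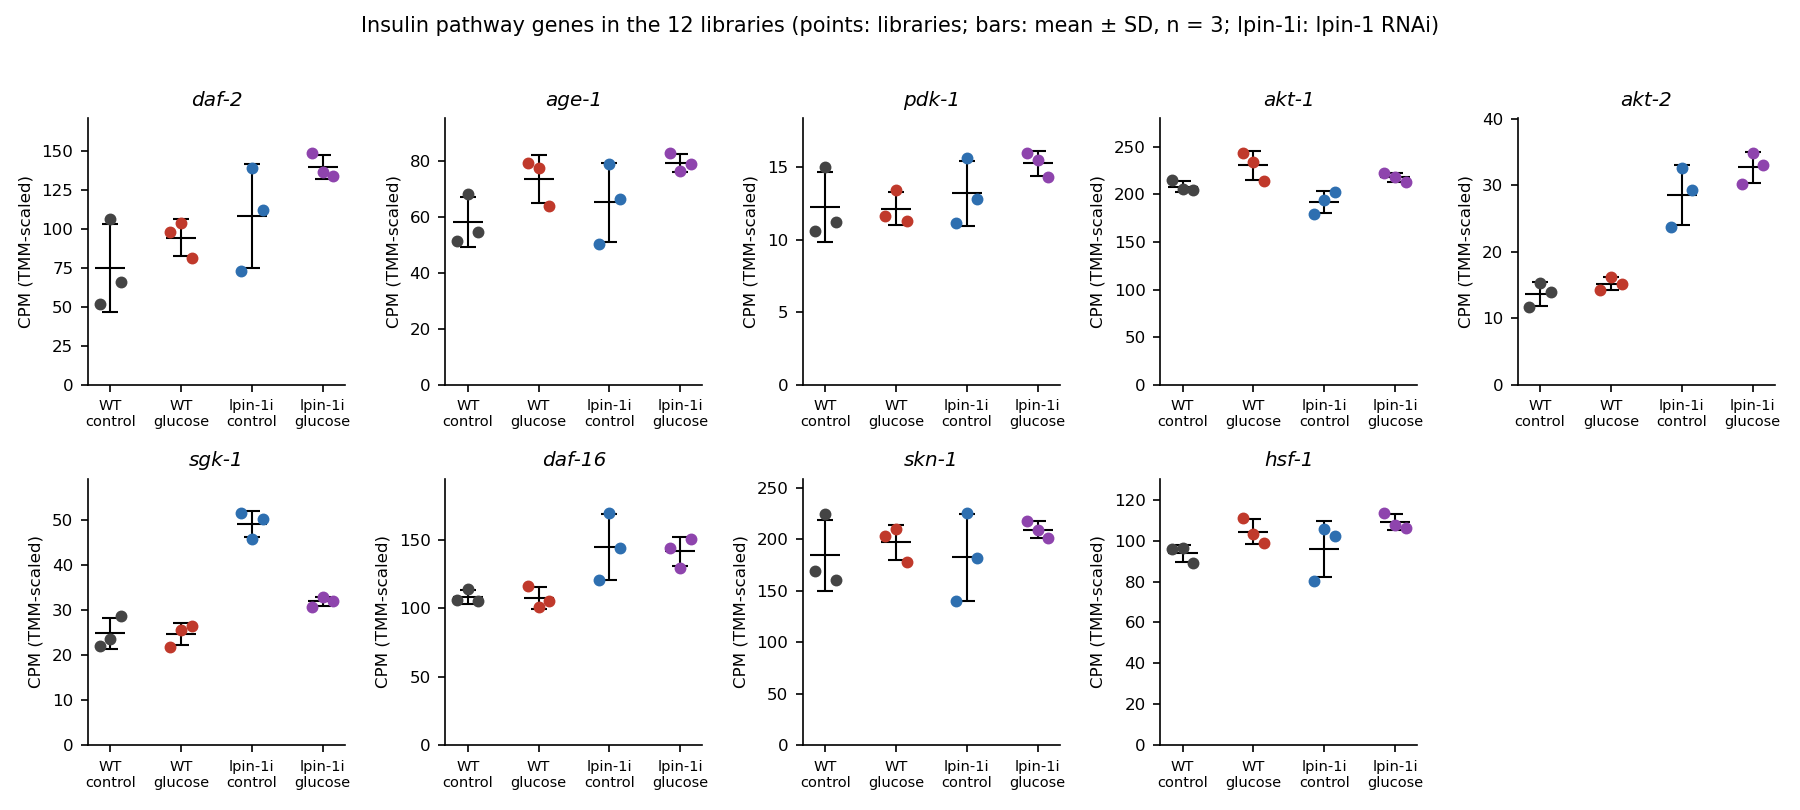
CPM of 9 pathway genes in the 12 libraries by group, with points for libraries and bars for mean ± SD (n = 3), each panel starting at 0. *akt-2* is higher in both *lpin-1* RNAi groups (lpin-1i), *daf-16* likewise by a smaller step, and *sgk-1* is highest in *lpin-1* RNAi on control diets at 45.8 to 51.5 CPM.

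Fewer pathway genes passed for glucose-rich diets than for *lpin-1* RNAi. In WT, 0 of 10 passed the edgeR test, beside 5.61% of all tested genes, with 1 (*age-1*) at an unadjusted p under 0.05 and 0 by DESeq2. Of the 10 fitted log2 fold changes 7 were above 0, with a median of 0.15 beside 0.00 over all tested genes, and the highest were 0.34 for *age-1* (95% confidence interval 0.01 to 0.67) and 0.33 for *daf-2* (-0.20 to 0.86). For *sgk-1* the interval in WT was -0.25 to 0.23. *hsf-1* was the gene whose libraries did not overlap between the diets in WT, higher on glucose-rich diets, and 18.6% of tested genes separated likewise in either direction.

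In *lpin-1(RNAi)*, glucose-rich diets lowered *sgk-1* to 64.9% of its level on control diets (log2 fold change -0.62, SE 0.11, adjusted p = 0.0020, edgeR), and none of the other 9 genes passed. In this comparison 13% of all tested genes passed in either direction. Of 6 intestine markers 4 fell, and the sum of all 6 went from 620 to 716 down to 445 to 503 CPM. Of 6 hypodermis markers 3 rose, *col-19* from a mean of 370.7 to 921.2 CPM, *dpy-7* from 1.1 to 8.6 and *nhr-25* from 5.0 to 10.2. The sum of all 6 hypodermis markers, from 356 to 469 up to 845 to 1106 CPM, was thus mostly *col-19*. The part of tissue content in the *sgk-1* value was not tested. This call, 1 of 10 beside 13% of all tested genes and 7.49% downwards, was under 2-fold (5.56% of tested genes passed with a 2-fold change) and held in all 19 alternative settings, with log2 fold changes of -0.75 to -0.60 when 1 library was left out. *akt-1* and *hsf-1* did not overlap between the diets in *lpin-1(RNAi)* either, each higher on glucose-rich diets, with log2 fold changes of 0.18 (SE 0.08) and 0.18 (SE 0.10). Without overlap there were 35.6% of tested genes in this comparison. The comparison of the diets and the *lpin-1* RNAi comparisons share groups, so the fall of *sgk-1* on glucose-rich diets and its larger rise on control diets rest on the same 3 *lpin-1(RNAi)* libraries.

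Whether the effect of glucose differed between *lpin-1(RNAi)* and WT was tested by the interaction term. For *sgk-1* the difference of log2 fold changes was -0.62 (SE 0.15, 95% confidence interval -0.95 to -0.28, adjusted p = 0.077, edgeR), which did not pass after adjustment. DESeq2 gave the same difference, -0.62, with an adjusted p of 0.014. Over the alternative settings the adjusted p of *sgk-1* ran from 0.014 to 0.204 (4 of 18 passed) and the difference stayed between -0.75 and -0.54. Of the 10 genes 0 passed in edgeR, 1 had an unadjusted p under 0.05 and 1 passed in DESeq2, beside 1.61% of all tested genes in edgeR. For *akt-2* the interaction was 0.05 with an interval of -0.36 to 0.46, and for *daf-16* it was -0.02 with an interval of -0.37 to 0.33.

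**Figure D4:**
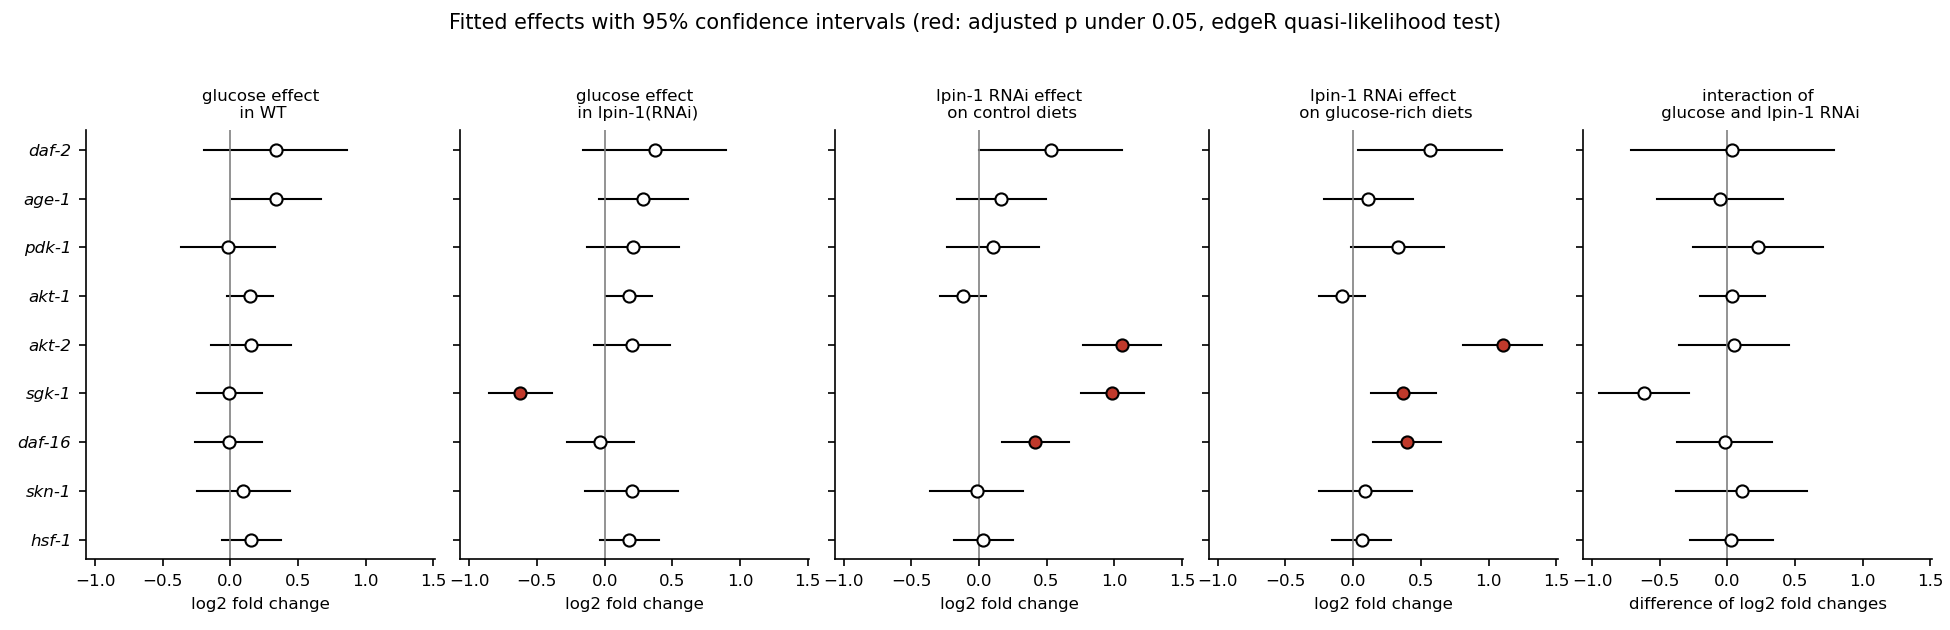
Fitted log2 fold changes of 9 pathway genes with 95% confidence intervals in the 4 comparisons, and the difference of log2 fold changes for the interaction. Filled red points passed at an adjusted p under 0.05 and are *sgk-1* for glucose in *lpin-1(RNAi)*, and *akt-2*, *sgk-1* and *daf-16* for *lpin-1* RNAi on both diets.

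The regulators of insulin signalling moved in both directions. Of 14 listed genes 9 were tested, and *lpin-1* RNAi on control diets raised 3 and lowered 1. Their median log2 fold change was 0.34 beside 0.00 over all tested genes. Of all tested genes 39.3% passed in either direction and 19.5% upwards on these diets, and 31.8% and 16% with glucose added. Whether this list or the lists below differ from these shares was not tested. *ftt-2*, a 14-3-3 protein that binds phosphorylated DAF-16, rose from 262 ± 18.5 to 465 ± 38.6 CPM (log2 fold change 0.83, adjusted p = 4.4e-06, edgeR), while *par-5*, the other 14-3-3 gene, fell from 1304 ± 105 to 1091 ± 37.3 CPM (log2 fold change -0.26, adjusted p = 0.019). With scaling by library totals alone *par-5* was at -0.01 and the list held 7 up and 0 down on control diets, and 6 up and 0 down with glucose added, while the replicate block gave 4 up and 1 down on either diet. The adaptor gene *shc-1* and the TORC2 component gene *sinh-1* rose by 0.59 and 0.34 on the log2 scale, and the same numbers, 3 up and 1 down, were called on glucose-rich diets. The TORC2 gene *rict-1*, whose complex activates SGK-1, had 0.49 with an adjusted p of 0.069 (edgeR) on control diets, which was 0.013 with the block. No regulator in this list passed for either glucose comparison.

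Among 13 regulators and cofactors of DAF-16, *lpin-1* RNAi raised 2 and lowered 1 on control diets, beside 39.3% of all tested genes passing. With glucose added it raised 1 and lowered 1, beside 31.8% passing (both shares in either direction). Totals alone gave 4 up and 1 down, and 5 up and 1 down, and the replicate block gave 2 up and 1 down with glucose added. *pqm-1*, a transcription factor whose nuclear presence opposes that of DAF-16, measured 16.19 ± 0.949 CPM in WT and 59.7 ± 3.61 in *lpin-1(RNAi)* on control diets, and 15.04 ± 2.35 and 35.4 ± 3.23 on glucose-rich diets. *pqm-1* rose by 1.88 (adjusted p = 4.4e-08, edgeR) and 1.24 (adjusted p = 3.5e-06) on the log2 scale and fell by 0.75 with glucose in *lpin-1(RNAi)* (adjusted p = 0.00077), as *sgk-1* did in the same comparisons. *prmt-1*, a methyltransferase that blocks AKT phosphorylation of DAF-16, fell by 0.63 on both diets (adjusted p = 0.00011 and 0.00015, edgeR).

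Of 10 regulators of SKN-1, *lpin-1* RNAi raised 3 on control diets, raised 2 with glucose added and lowered none. The shares of all tested genes passing in either direction were 39.3% without and 31.8% with added glucose, and 19.5% and 16% passed upwards. With libraries scaled by totals alone *lpin-1* RNAi raised 7 of the 10 on either diet, a count made under another scaling than these shares. With the replicate block it raised 4 and lowered 1 on control diets and raised 3 with glucose added. The risers on control diets were *sek-1* and *pmk-1*, kinases of the p38 cascade, at 0.39 and 0.45, and the protease gene *ddi-1* at 0.41 (log2 fold change, adjusted p = 0.0056, 0.022 and 0.0011, edgeR). Of 5 regulators of HSF-1, *hsp-90* fell on both diets and none rose, while totals alone gave 1 up and 1 down on either diet and the replicate block gave 2 down on control diets.

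Of 39 insulin-like peptide genes found, 25 were tested, and *lpin-1* RNAi raised 9 and lowered 1 on control diets. With glucose added it raised 6 (7 with the replicate block) and lowered 1. Beside these counts, 39.3% and 31.8% of all tested genes passed in either direction, and 19.5% and 16% upwards. The medians of the 25 were 0.30 and 0.18 on the log2 scale, beside 0.00 and 0.03 over all tested genes. *ins-33* fell from 4.61 ± 0.860 to 0.381 ± 0.0551 CPM on control diets (log2 fold change -3.55, adjusted p = 1.5e-07, edgeR) and, in WT, to 1.92 ± 0.280 CPM with glucose (-1.25, adjusted p = 0.0045). *ins-7*, a gut-expressed agonist of DAF-2, rose from 0.970 ± 0.0789 to 4.32 ± 1.37 CPM by *lpin-1* RNAi on control diets (log2 fold change 2.15, adjusted p = 3.6e-05, edgeR). On glucose-rich diets *ins-7* was at 0.953 ± 0.236 CPM in WT and 0.981 ± 0.210 in *lpin-1(RNAi)*, and its interaction passed (-2.12, SE 0.42, adjusted p = 0.021, edgeR). *ins-20* was near the lower limit of counting, with 0, 1 and 0 counts in WT and 25, 13 and 8 in *lpin-1(RNAi)* on control diets. *ins-10* gave 0, 5 and 2 against 38, 31 and 11 counts there, and *ins-12* gave 0, 1 and 2 against 13, 6 and 13 counts on glucose-rich diets. All 3 were called higher in those comparisons, with groups that did not overlap.

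Of the 14 listed targets of DAF-16, *lpin-1* RNAi raised 8 and lowered 1 on control diets. With glucose added it raised 6 and lowered 2. Among all tested genes 39.3% and 31.8% passed in either direction, and 19.5% and 16% upwards. The medians of the 14 were 0.80 and 0.71 on the log2 scale, beside 0.00 and 0.03 over all tested genes. With totals alone the split on glucose-rich diets was 7 up and 1 down, and with the replicate block it was 9 up and 2 down without and 7 up and 2 down with added glucose. *sod-3*, a mitochondrial superoxide dismutase often used to read DAF-16 activity, was the one that fell on control diets, from 11.8 ± 1.90 to 2.96 ± 0.677 CPM (log2 fold change -1.97, adjusted p = 5.5e-06, edgeR). The metallothionein gene *mtl-1* rose from 0.285 ± 0.0892 to 1.45 ± 0.413 CPM (log2 fold change 2.37, adjusted p = 0.00034, edgeR). *ins-7*, which is known to be lowered by DAF-16, is in this list too and rose. Glucose raised 5 of the 14 and lowered none in WT, beside 5.61% of all tested genes passing in either direction. In *lpin-1(RNAi)* it raised 3 and lowered 1, beside 13%. *icl-1*, a glyoxylate cycle enzyme, rose with glucose from 45.6 ± 8.01 to 225 ± 24.1 CPM in WT and from 63.3 ± 23.2 to 515 ± 36.8 CPM in *lpin-1(RNAi)* (log2 fold change 2.30 and 3.02, adjusted p = 3.1e-05 and 2.4e-06, edgeR). The lipase gene *lipl-4* rose by 1.98 with *lpin-1* RNAi on control diets and by 2.14 with glucose in WT on the log2 scale (adjusted p = 0.010 and 0.037, edgeR).

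Of 12 listed targets of SKN-1, *lpin-1* RNAi raised 4 and lowered 5 on control diets, beside 39.3% of all tested genes in either direction. With glucose added it raised 2 and lowered 3, beside 31.8%. There totals alone gave 4 up and 3 down and the replicate block 3 and 3. The glutathione S-transferase gene *gst-4*, the usual reporter of SKN-1 activity, fell from 43.3 ± 4.55 to 8.62 ± 0.747 CPM on control diets (log2 fold change -2.33, adjusted p = 3.3e-09, edgeR) and from 69.9 ± 0.892 to 28.3 ± 2.61 CPM on glucose-rich diets (-1.30, adjusted p = 5.2e-07). *gst-10* fell by 2.58 and *gst-13* by 2.40 on the log2 scale on control diets. The glucuronosyltransferase gene *ugt-16* moved the other way, from 10.8 ± 2.51 to 66.7 ± 8.41 CPM (log2 fold change 2.63, adjusted p = 8.1e-08, edgeR). Glucose raised *gst-4* in both RNAi groups and lowered *gst-10* in both, and the interaction of *gst-4* passed (1.02, SE 0.15, adjusted p = 0.0031, edgeR), as did that of *gst-13* (1.28, SE 0.17, adjusted p = 0.0019).

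The 13 entries for targets of HSF-1 moved in both directions with *lpin-1* RNAi. On control diets 4 of them, *hsp-70*, *F44E5.4*, *hsp-16.2* and *hsp-16.41*, did not pass. Among all tested genes 39.3% passed in either direction on control diets and 31.8% with glucose added. *lpin-1* RNAi on control diets lowered 4, the cytosolic chaperone genes *hsp-1*, *hsp-90*, *hsp-110* and *dnj-13*, by 0.43 to 0.86 on the log2 scale, for example *hsp-90* from 5152 ± 572 to 3298 ± 244 CPM (log2 fold change -0.64, adjusted p = 0.00018, edgeR). With totals alone *hsp-1* did not pass (-0.19) and 7 entries were up and 3 down, and with the replicate block 7 were up and 4 down. In the main scaling, *lpin-1* RNAi raised 5 entries, namely *hsp-3*, a chaperone of the endoplasmic reticulum, and 4 copies of *hsp-16.1* and *hsp-16.48*. On glucose-rich diets 7 entries were up and 2, *hsp-90* and *hsp-110*, down, with *hsp-1* and *dnj-13* passing downwards too under the block (7 up and 4 down). The *hsp-16* genes exist as near-identical copies whose shares of the reads are uncertain, and 1 copy of each held 0 counts in all WT libraries on control diets, so only sums are given. The counts of entries above take each copy as a separate entry and are not counts of independent genes. The 2 copies of *hsp-16.1* summed to 16.19 ± 5.96 CPM in WT and 189 ± 11.8 in *lpin-1(RNAi)* on control diets, and the 2 copies of *hsp-16.48* to 14.2 ± 2.68 and 120 ± 9.75. On glucose-rich diets the sums were 10.4 ± 3.27 and 150 ± 12.4 CPM for *hsp-16.1* and 9.49 ± 3.19 and 100.2 ± 6.96 CPM for *hsp-16.48*. The WT and *lpin-1(RNAi)* ranges of these sums did not overlap on either diet, while *hsf-1* itself did not pass.

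**Figure D5:**
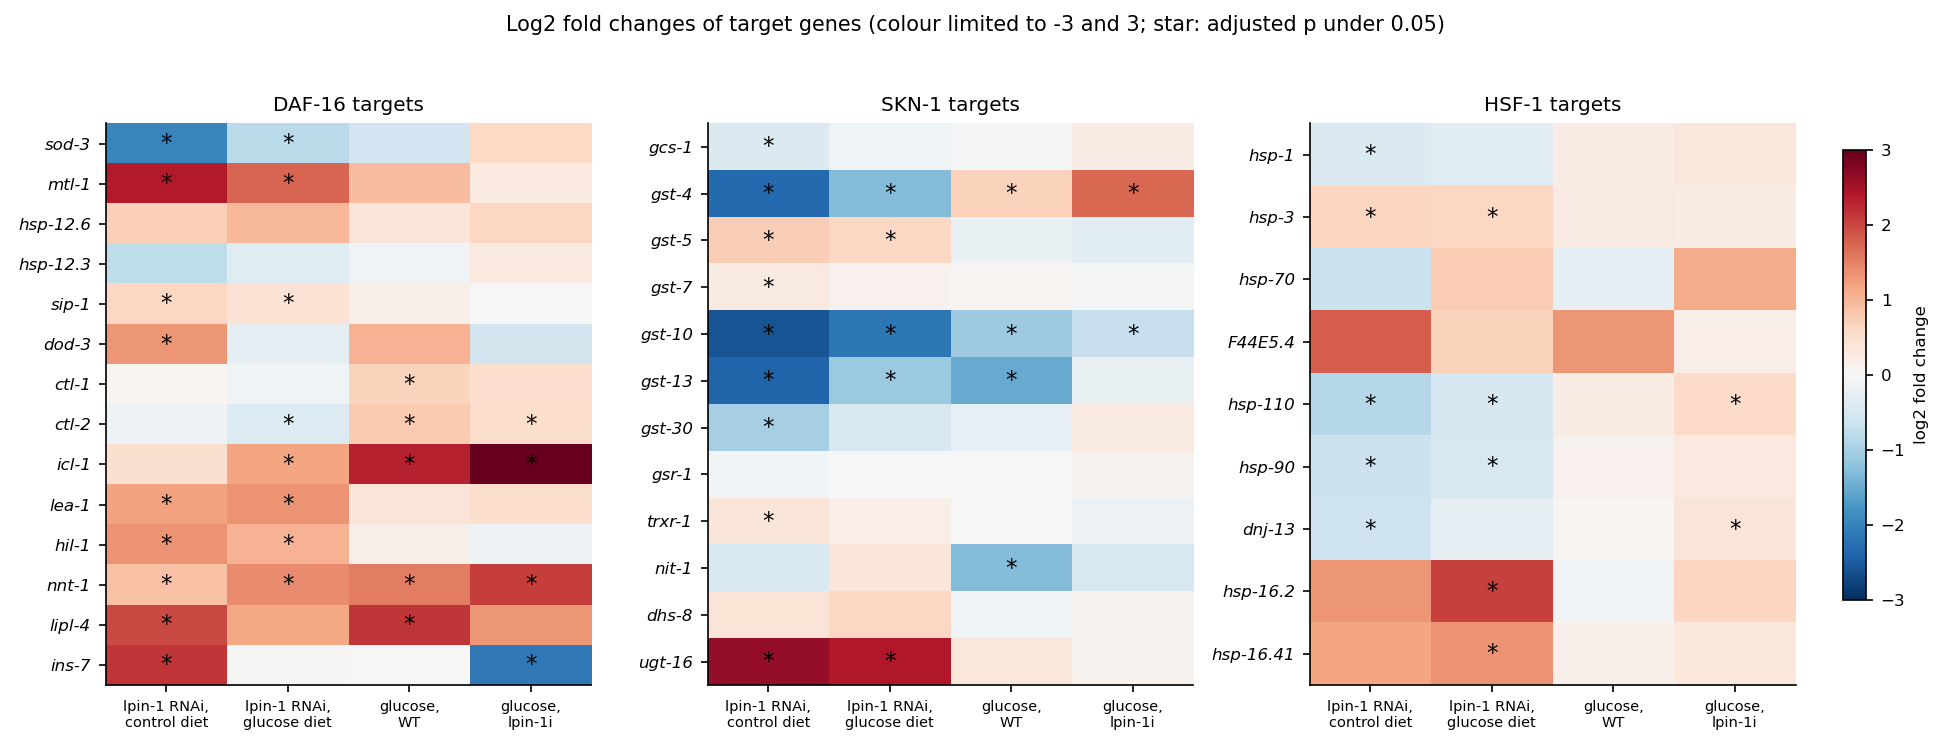
Log2 fold changes of the listed targets of DAF-16, SKN-1 and HSF-1 (rows) in 4 comparisons (columns), as colour limited to -3 and 3, with a star for an adjusted p under 0.05. Copies of *hsp-16.1* and *hsp-16.48* are left out, and each list holds both higher (red) and lower (blue) genes in the *lpin-1* RNAi columns.

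For the 3 pathway genes with the largest fitted changes by *lpin-1* RNAi, *akt-2*, *sgk-1* and *daf-2* (which did not pass), some genes had a similar pattern across the 12 libraries, which fall into the 4 groups and so share the group differences. For *akt-2* these were *frl-1*, *tbc-14* and *ipla-2*, with Pearson r of log2 CPM of 0.992, 0.992 and 0.990. For *sgk-1* they were *nhr-42* at 0.991, *sma-4*, a SMAD protein of the body size pathway, at 0.988 and *mlt-3* at 0.982. *sma-4* rose by 1.27 on control diets on the log2 scale and fell by 0.74 with glucose in *lpin-1(RNAi)*. For *daf-2* they were *copb-2* at 0.994 and *copa-1* at 0.991, both subunits of the COPI vesicle coat, and *agef-1* at 0.990. Among the 10 genes themselves, *daf-2* and *pdk-1* were the most alike, with r of 0.914.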

How the data were processed

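The authors deposited expected counts per gene for each library, which the submitters' processing notes credit to STAR 2.7.0e and RSEM 1.3.1 on WBcel235 (DESeq2 1.22.2 is also named). The annotation release and the strand setting are not given in the sources used here. The kit was a stranded TruSeq kit. Expected counts were rounded to whole numbers, and no value of the 10 genes was fractional. Genes were filtered with filterByExpr (minimum count 10) and tested with the edgeR 4.0.16 quasi-likelihood test in R 4.3.3, with TMM scaling, 1 mean per group over all 12 libraries and Benjamini-Hochberg adjustment over 14696 genes (passed at an adjusted p under 0.05). DESeq2 1.42.0 was an alternative. The procedure was tested on simulated data.

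Gene positions, transcripts and merged exon lengths came from the WBcel235 annotation. CPM per kb divides TMM-scaled CPM by the exon length. Library totals were 16546025 to 31534259, and the lowest count of any pathway gene in any library was 182 (*pdk-1*).

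WT and *lpin-1(RNAi)* libraries of the same replicate number in their labels deviated together from their group means in every pair (r of 0.28 to 0.53 without added glucose, 0.20 to 0.35 with it), so the replicate block is given beside those results of pathway genes and beside the counts of lists where it changes them. The labels do not say what a number shares.

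Counts cover all 10 pathway genes, and the values of 1 are not reported here. The pathway genes and lists were chosen with earlier results of these data known. From each list, up to 4 genes past the threshold and a 2-fold change were named, with the 3 genes most like each of the 3 pathway genes of largest change by *lpin-1* RNAi. Any other gene named from the lists was chosen after its values were seen. *hsp-16.11* and *hsp-16.49* were not matched. Alternatives were another scaling, filters, tool, block, fits of the compared groups alone, a 2-fold threshold and leaving out each library. The settings counted for a single gene do not include the 2-fold threshold, which is given apart. Coding length of the annotation was chosen after seeing the data. Sequences and promoter motifs were not analysed here.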

Additional observations from a re-analysis of the deposited data

How the results depend on the processing

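With a 2-fold change required besides the adjusted p, the number of pathway genes called was 0 for glucose in *lpin-1(RNAi)* and 1 (*akt-2*) for *lpin-1* RNAi on each diet. With library totals alone as the scaling, 6 genes were called for *lpin-1* RNAi on control diets (*daf-2*, *age-1* and *hsf-1* gained) and 6 on glucose-rich diets (*daf-2*, *pdk-1* and *hsf-1* gained). That scaling moves the median of all tested genes by 0.25 and 0.23 on the log2 scale, and relative to this shift *akt-2* had 1.06 and 1.08, *sgk-1* 0.99 and 0.34 and *daf-16* 0.41 and 0.37. On glucose-rich diets *lpin-1* RNAi gave 5 calls with the replicate block and 5 in a fit of the compared groups only (*daf-2* and *pdk-1* gained). The shares of all tested genes called with totals alone, the block or the compared groups only are not given here. Nothing particular to the pathway is therefore read from these counts. The interaction gave 1 call (*sgk-1*) with the replicate block (adjusted p = 0.025, edgeR) and 1 with DESeq2. Same-numbered libraries were not paired by every r for the interaction (lowest 0.04, 12 of 18 pairs over 0.1) or for the glucose effects (lowest 0.06 in WT and 0.04 in *lpin-1(RNAi)*). The block changed no call of the 10 genes for the glucose effects, but among the listed targets of DAF-16 it gave 7 up and 1 down for glucose in *lpin-1(RNAi)*, against 3 and 1 without it. In the same comparison it moved the listed targets of HSF-1 from 2 to 4 up and the germline markers from 0 to 3 up. The listed targets of SKN-1 stayed at 1 up and 1 down. Without a share of all tested genes under the block, nothing particular to a list is read from these counts.

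Leaving out 1 library at a time gave 3 to 4 calls for *lpin-1* RNAi on control diets, 1 to 4 on glucose-rich diets (1 without replicate 1 or 3 of the glucose-fed *lpin-1(RNAi)* libraries), 0 to 1 for the interaction (1 without replicate 3 of WT or replicate 2 of *lpin-1(RNAi)*, both on control diets), 0 for glucose in WT and 1 for glucose in *lpin-1(RNAi)*. The cause of these changes was not tested. No called gene changed direction in any of these settings. The order of levels was the same by coding length of the annotation and within WT on control diets, and 8 of 10 genes kept their place in each of the other groups. By coding length *hsf-1* and *daf-16* were nearly level, so the gap between these genes depends on the length used. Coding length of a protein table and the promoter motifs were not run.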

Other observations

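Within a group, the pathway genes did not vary independently. On control diets replicate 2 was the highest of the 3 libraries for 8 of the 10 genes in WT and for 7 of 10 in *lpin-1(RNAi)*, whereas on glucose-rich diets replicate 1 was the highest for 5 and 6 genes. How often each replicate was the highest over all tested genes was not examined, so nothing particular to the pathway is read from these counts. The coefficient of variation over 3 libraries reached 37.6% for *daf-2* in WT on control diets and was at most 6.63% for *akt-1* in any group. Across the 12 libraries *age-1* and *hsf-1* had a Pearson r of 0.897 and *akt-2* and *daf-16* 0.874, values that share the group differences and the libraries' own deviations.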
